A study of Mus musculus with 30 samples.

Results

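Adipocyte RNA of 6 female control libraries was compared with that of 6 male control libraries, which are 12 of the 30 libraries of a study of β-catenin deficiency in mouse white fat. The members were taken by their labelled genotype, sex and cell fraction, and genes on the 19 autosomes were described, 13558 of the 14227 genes tested. Both groups carry the label Ctnnb1flfl, a floxed β-catenin gene in control mice, and the labels name no treatment, so the groups share the genotype and differ in the label of sex. The labels call the controls sex- and age-matched to the knockouts but give no age, do not say that each replicate number is a separate mouse, and name no day of collection and no time of day. The spread that the p-values measure is thus that between libraries, and it may be technical. Every library, females included, is labelled with 2 depots, epididymal white fat (eWAT) and posterior subcutaneous white fat (psWAT). Females have no epididymis, and the depot of a single library is not given. Sex, depot, collection and any run of libraries therefore cannot be told apart, and "higher in females" below means higher in the libraries labelled female. Collagenase (500 U/ml) acted on eWAT for 20 min and on psWAT for 30 min, and buoyant adipocytes were taken after a spin of 80 g for 8 min. The 11 adipocyte libraries labelled Ctnnb1KO (6 female, 5 male) served as a second set in which the same difference between the sexes could be read. What drives the deletion in them is not named, and Ctnnb1 reads do not set them apart: female libraries had 289, 319 and 347 CPM in controls and 294, 349 and 369 CPM in knockout-labelled ones (lowest, median and highest), and male libraries 316, 325 and 340.5 and 293, 309 and 368 CPM. Reads over the whole gene need not fall where only some exons are removed, so this does not check the genotype label.

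White adipocytes store triglyceride, release it as fatty acids between meals and secrete hormones such as leptin and adiponectin. Fat depots differ in embryonic origin, and their cells keep expressing Hox and other patterning genes of the body region they came from, so these genes serve as an address of the depot. Genes at the posterior end of the Hox clusters, such as Hoxc9 and Hoxc10, are known from subcutaneous fat of the groin and flank, while visceral fat is known for Wt1, Tcf21 and Gata6. Adipocytes also run a circadian clock, in which Arntl (Bmal1) with Clock or Npas2 switches on the Per and Cry genes that hold them back. Isolated floating adipocytes carry RNA of other cells, so stromal and immune genes were read as well. In bulk RNA fewer cells of a type and less RNA per cell cannot be told apart.

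Total counts ran from 21292961 to 21738980 per female library and from 22040753 to 22209603 per male library. Xist lay between 74.7 and 130.1 CPM (counts scaled to the library total) in females and at 0 in males, and Ddx3y at 0 in females and between 43.6 and 66.8 CPM in males, so the labels of sex held in all 12 libraries. Mitochondrially encoded genes took 3.49% to 5.19% of female counts and 1.68% to 2.08% of male counts. The summed level of 22 macrophage markers was 9071 to 12617 CPM in females and 8242 to 11086 CPM in males, which overlapped. Without Lpl and Cd9, which adipocytes express and which were taken out after values were seen, the sum of the other 20 was 316 to 637 CPM in females and 680.0 to 1280.1 CPM in males. In stromal-vascular cells (SVC), the pelleted cells of male fat, it was 6481 to 12289 CPM. The sum of 12 mural cell markers was 205 to 525 CPM in females and 157 to 265 CPM in males, that of 22 fibroblast markers 1287 to 2041 and 1165 to 1401 CPM, and that of 23 epithelial markers 23.6 to 79.3 and 24.3 to 32.9 CPM. Of these epithelial markers 4 were at 0 in every female and 7 in every male library, and female controls 4 (79.3 CPM) and 6 (57.8 CPM) had the highest sums. Of 22 epididymal and sperm transcripts, 16 were at 0 in all female and 8 in all male libraries. The part that these cells have in the differences below was not tested.

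The 2 sets of control libraries differed over much of the autosomal genome. With edgeR's quasi-likelihood test and Benjamini-Hochberg adjustment over all genes tested, 5939 of 13558 autosomal genes (43.8%) were called at an adjusted p below 0.05. Of these, 3224 were higher in females (23.8% of those tested) and 2715 lower (20.0%), with a median log2 difference over all autosomal genes of 0.05. A difference of more than 1 on the log2 scale was found for 766 higher and 651 lower genes, and one of more than 3 for 81 and 44. For 2893 genes (21.3%) the 6 female and 6 male libraries did not overlap at all. In the knockout-labelled libraries the same contrast called 4680 autosomal genes (34.5%), 2450 higher in females (18.1%) and 2230 lower (16.4%). These shares are the background against which the counts within gene lists are read.

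Hox genes showed a break along the HoxC cluster, with posterior genes higher in females and several more anterior genes lower. In the HoxA cluster 8 of 10 tested genes had a positive difference. There 5 were called higher, mostly posterior genes, and 2 lower, Hoxa4 and Hoxa7. All 3 tested HoxD genes were called higher. The HoxA, HoxB, HoxC and HoxD clusters lie on chromosomes 6, 11, 15 and 2. The authors counted 37 Hox genes, of which 27 passed the filter on low counts. Among the 27, 11 were called higher and 7 lower, against 23.8% and 20.0% of all autosomal genes. In the knockout-labelled libraries 14 of these 18 were called in the same direction. Levels below are given as the lowest, the median and the highest of the 6 libraries of a group, in TMM-adjusted CPM. Differences are female minus male on the log2 scale with their standard error (SE). Hoxa10, a posterior Hox gene, lay at 16.4, 21.6 and 26.9 CPM in females and 0, 0.277 and 1.16 CPM in males, a difference of 5.85 ± 0.41 (edgeR adjusted p = 3.56e-10). The groups were far apart, and the highest male library was male control 2. Hoxa9 lay at 3.29, 4.96 and 6.08 CPM in females and 0.0455, 0.136 and 0.258 CPM in males (4.92 ± 0.30, adjusted p = 2.03e-11). Hoxa11 lay at 1.55, 2.36 and 3.75 CPM in females and 0.0452, 0.0926 and 0.136 CPM in males (4.74 ± 0.39, adjusted p = 3.77e-09). Hoxa13, the last gene of the cluster, lay at 1.13, 1.60 and 1.88 CPM in females and 0, 0.0455 and 0.387 CPM in males (4.04 ± 0.49, adjusted p = 9.88e-07). None of the 4 genes overlapped between the groups, and in the male adipocyte libraries they were close to the limit of detection. In male control SVC Hoxa9 ran from 0.279 to 5.67, Hoxa10 from 0.0931 to 3.57 and Hoxa11 from 0.186 to 0.858 CPM of the library total. Without male control 2 the differences of Hoxa10 and Hoxa13 grew to 6.68 and 5.55.

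In the HoxC cluster the direction turned within a short stretch of neighbouring genes. Hoxc10 lay at 13.8, 18.05 and 21.4 CPM in females and 0.227, 0.602 and 0.947 CPM in males (4.91 ± 0.22, edgeR adjusted p = 1.03e-13). Hoxc9 lay at 8.13, 9.73 and 11.1 CPM in females and 3.77, 4.02 and 5.24 CPM in males (1.18 ± 0.11, adjusted p = 2.76e-08). Its neighbour Hoxc8 went the other way, at 43.8, 47.5 and 53.0 CPM in females and 89.2, 90.3 and 105 CPM in males (-0.94 ± 0.10, adjusted p = 2.5e-07). The libraries of the 2 groups did not overlap for any of these 3 genes. Hoxc6 overlapped widely (20.8, 26.9 and 29.0 CPM in females and 19.3, 28.4 and 40.0 CPM in males) and was not called (-0.19 ± 0.14, adjusted p = 0.263). Hoxc5 was lower in females (-0.80 ± 0.17), and Hoxc4, the most anterior gene of the cluster, lay at 2.29, 2.86 and 3.34 CPM in females and 10.9, 14.4 and 16.5 CPM in males (-2.32 ± 0.14, adjusted p = 2.03e-11). Hoxc4 had every female library below every male library.

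The HoxD genes tested went one way and the HoxB genes did not. Hoxd9 lay at 6.59, 8.04 and 8.597 CPM in females and 1.05, 1.73 and 3.10 CPM in males (2.08 ± 0.17) and Hoxd8 at 18.1, 21.1 and 23.9 CPM in females and 8.68, 9.44 and 11.4 CPM in males (1.10 ± 0.09), both without overlap. Hoxa7 was lower in females (14.3, 17.3 and 19.7 CPM in females and 25.0, 28.1 and 31.4 CPM in males, -0.68 ± 0.09), as was Hoxa4 (-1.20 ± 0.29). In the HoxB cluster Hoxb2 (-1.32 ± 0.30) and Hoxb3 (-1.16 ± 0.21) were lower, and no posterior HoxB gene showed a difference near those of HoxA or HoxC, since Hoxb9 lay at 0.338, 0.449 and 0.562 CPM in females and 0.283, 0.478 and 0.688 CPM in males (-0.14 ± 0.28, edgeR adjusted p = 0.704). The calls of Hoxa5 (0.29 ± 0.11, adjusted p = 0.0368), Hoxb8 (0.57 ± 0.23, adjusted p = 0.0433) and Hoxd1 (1.19 ± 0.42, adjusted p = 0.0252) were lost under 14, 15 and 4 of the alternatives. Hoxa5 lost its call without male control 3, 4, 5 or 6 or female control 1, 3, 4 or 5 (adjusted p up to 0.127). Hoxb8 lost it without any library but male control 2 or female control 6 (up to 0.118), and Hoxd1 without male control 3, 4 or 5 or female control 1 (up to 0.0736). The other 9 tested Hox genes were not called. Some untested posterior genes had reads in females alone, Hoxc11 with 16 and Hoxd10 with 15 reads over the 6 libraries against 0 in males. Hox genes overlap antisense transcripts, and the strand setting of the authors' counting is not given, so reads of both strands may be mixed.

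**Figure D1:**
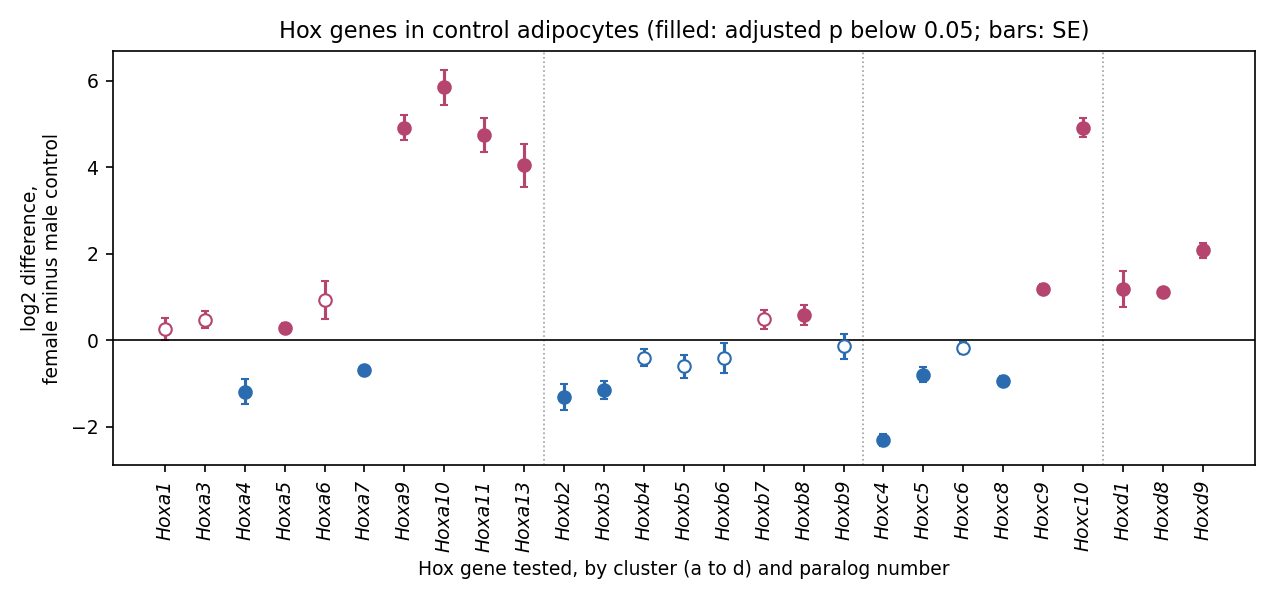
Log2 difference (female minus male control adipocytes) of the 27 tested Hox genes, ordered by number within each cluster, with bars of 1 SE. Posterior genes of HoxA, HoxC and HoxD lie above 0, up to 5.85 for Hoxa10, and Hoxc4 lies lowest at -2.32.

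The tested genes known as markers of subcutaneous fat were all higher in females, while those known as visceral were split. Of 6 subcutaneous genes 3 were tested and all 3 were called higher, Hoxc9, Hoxc10 and Sfrp2, a secreted Wnt modulator. Sfrp2 lay at 1.07, 1.90 and 2.84 CPM in females and 0.188, 0.480 and 2.19 CPM in males (1.38 ± 0.43, edgeR adjusted p = 0.0118), with male control 1 inside the female range, and at 2.11 without that library. Of 7 tested visceral genes 3 were called higher and 2 lower. Tcf21, a mesodermal transcription factor of visceral fat precursors, was higher (1.01, 2.40 and 3.37 CPM in females and 0.364, 0.762 and 2.28 CPM in males, 1.16 ± 0.33). Gata6, another such factor, was higher as well (25.2, 30.9 and 58.2 CPM in females and 20.8, 25.6 and 30.0 CPM in males, 0.58 ± 0.19, adjusted p = 0.0162), and its call was lost without female control 5 (adjusted p = 0.0674) or 6 (0.0755). Wt1, the gene best known from visceral fat and mesothelium, was low and overlapped (0.679, 2.16 and 2.55 CPM in females and 0.471, 1.04 and 2.92 CPM in males, 0.53 ± 0.36, adjusted p = 0.238), and it was called only without male control 1 (adjusted p = 0.0259). Thbd, which encodes thrombomodulin, was lower (283, 342 and 384 CPM in females and 423, 523 and 594 CPM in males, -0.62 ± 0.21) and lost its call without female controls 4 and 6 together (adjusted p = 0.0622). Without female control 5 the list had 1 gene called higher in place of 3. The list also holds Hoxa5 and Hoxc8, described above, and Nr2f1, which was not called (-0.40 ± 0.18). In male control SVC Sfrp2 ran from 24.2 to 45.9, Tcf21 from 99.6 to 133 and Gata6 from 19.7 to 27.2 CPM of the library total. The visceral list gave no single direction.

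Other patterning transcription factors were mostly higher in females. Of 55 such genes 29 were tested, and 16 were called higher in females and 1 lower, against 23.8% and 20.0% of all autosomal genes. The median log2 difference was 0.81 against 0.05 for all autosomal genes. The single lower gene was Alx4 (-1.33 ± 0.46), whose call was lost without male control 5 (adjusted p = 0.095) and which overlapped between the groups, and without female control 6 the lower genes were 2. Pitx1, the factor that gives the hindlimb its identity, had 1.01, 1.48 and 1.84 CPM in females and no read in any male library. Against the floor of 3 reads per library (0.136 CPM) that is at least 11.0-fold higher in females. Prrx1, a limb and flank mesenchyme gene, lay at 19.6, 30.7 and 42.2 CPM in females and 4.20, 5.74 and 6.60 CPM in males (2.46 ± 0.21, edgeR adjusted p = 6.67e-09), and no libraries overlapped. Emx2, a homeobox gene of the urogenital tract and limb girdle, lay at 0.821, 1.11 and 1.67 CPM in females and 0.0430, 0.113 and 0.274 CPM in males (3.09 ± 0.30, adjusted p = 3.76e-08). In male control SVC Prrx1 ran from 46.0 to 89.0 and Emx2 from 2.19 to 14.4 CPM of the library total, above every female adipocyte library. Pitx1 ran from 0 to 0.0953 CPM there. The part of stromal RNA in these differences was not tested. Irx1 and Tbx5, chosen after their values were seen, had 0.173, 0.317 and 0.822 and 0.0485, 0.338 and 0.648 CPM in females, against at most 0.0430 and 0.0455 CPM in a male library. Tbx3 (0.97 ± 0.17), Foxf1 (2.56 ± 0.47) and Foxc2 (0.88 ± 0.23), also outside the naming rule, were higher without overlap. In the knockout-labelled libraries 14 of the 29 were called higher and 2 lower.

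Among all autosomal genes the largest differences were found in genes of several kinds. Nrn1, which encodes the membrane-anchored growth factor neuritin, lay at 16.3, 20.2 and 23.7 CPM in females and 0.0452, 0.0910 and 0.387 CPM in males (7.08 ± 0.28, edgeR adjusted p = 1.96e-14). The lowest female library was far above the highest male library, male control 2, without which the difference was 7.68. Mmp3, a matrix protease, lay at 0.582, 2.58 and 5.17 CPM in females and 0, 0.0227 and 0.0861 CPM in males (6.25 ± 0.70), again with no overlap. Frmd3 (4.83 ± 0.32), Ofcc1 (5.02 ± 0.45), Pdzk1ip1 (4.72 ± 0.95) and Ahsg, which encodes fetuin-A (4.66 ± 0.61, and 5.75 without male control 5), were also among the genes of largest difference, beside Hox genes and Pitx1. All of these were called with the same sign in the knockout-labelled libraries.

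Genes far lower in females included enzymes, complement and acute-phase genes. Sult1e1, the estrogen sulfotransferase that inactivates estrogens, had 2 reads in all 6 female libraries and 292 in males, a ratio of 142 after scaling (exact 95% interval 39.0 to 1180, counting error only). Slc44a4, a choline transporter family member, had 2 and 186 reads, both female reads from female control 5, a ratio of 90.6 (24.7 to 754). Steap2, a metalloreductase, lay at 0.0485, 0.295 and 0.432 CPM in females and 11.1, 13.9 and 20.0 CPM in males (-5.71 ± 0.26, edgeR adjusted p = 1.73e-13). No adipocyte library of 1 sex reached the range of the other for these 3 genes. Sult1e1 was low in the male adipocyte libraries too, at 1.08, 2.31 and 2.94 CPM. In male control SVC Sult1e1 ran from 310 to 441, Slc44a4 from 0.651 to 17.1 and Steap2 from 13.1 to 15.5 CPM of the library total. C7, a component of the complement attack complex, lay at 0.497, 0.637 and 1.36 CPM in females and 19.2, 32.9 and 42.0 CPM in males (-5.21 ± 0.31, adjusted p = 2.34e-11), and it averaged 1913 CPM in SVC. Rab15, a small GTPase, lay at 1.05, 1.39 and 2.72 CPM in females and 22.6, 29.4 and 39.9 CPM in males (-4.29 ± 0.30). The acute-phase genes Saa1 (0.0915, 0.225 and 0.532 CPM in females and 2.41, 5.45 and 8.94 CPM in males, -4.37 ± 0.59) and Saa2 (0.0893, 0.227 and 0.582 CPM in females and 3.12, 4.55 and 10.3 CPM in males, -4.24 ± 0.60) are near-identical, so their reads may be split between them. Syt2 (-5.45 ± 0.59), Dok7 (-5.30 ± 0.53), Arg1 (-4.61 ± 0.60), Asphd1 (-4.50 ± 0.32) and Angpt4 (-4.18 ± 0.70, and -5.22 without female control 4) followed, each without overlap between the groups.

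**Figure D2:**
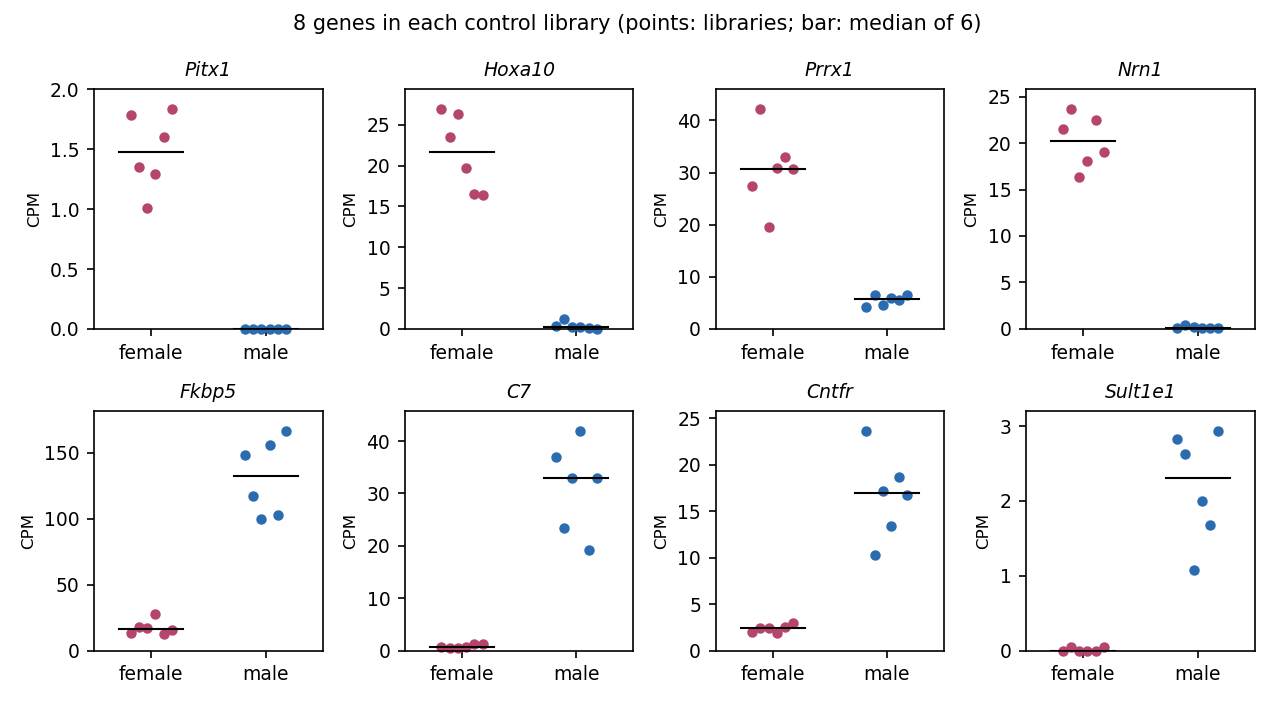
TMM-adjusted CPM of 8 genes in each of the 12 control libraries, 1 point per library, with the bar at the group's median. For Pitx1, Hoxa10, Prrx1 and Nrn1 all female points lie above all male points, and for Fkbp5, C7, Cntfr and Sult1e1 all lie below.

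Clock genes differed by role, with the activators higher in females and most repressors and output factors lower. Of 19 clock genes, all tested, 3 were called higher and 11 lower, against 23.8% and 20.0% of all autosomal genes. The median log2 difference was -0.74. Of the 14 called clock genes 13 were called in the same direction in the knockout-labelled libraries. Arntl, the central activator, lay at 6.45, 10.0 and 14.9 CPM in females and 1.27, 2.22 and 2.58 CPM in males (2.28 ± 0.24, edgeR adjusted p = 1.27e-07). Its partner Npas2 lay at 2.24, 3.84 and 6.86 CPM in females and 0.0453, 0.184 and 0.258 CPM in males (4.55 ± 0.35, adjusted p = 1.18e-09). The other partner, Clock, lay at 43.6, 58.8 and 65.3 CPM in females and 22.4, 26.9 and 31.0 CPM in males (1.08 ± 0.14, adjusted p = 3.09e-06). In all 3 activators every female library was above every male library. The output factors of the PAR bZIP family went the other way. Dbp lay at 11.0, 15.9 and 42.7 CPM in females and 164, 207 and 285 CPM in males (-3.37 ± 0.30, adjusted p = 2.6e-08), Tef at 50.3, 68.8 and 114 CPM in females and 217, 286 and 372 CPM in males (-1.999 ± 0.18) and Hlf at 3.70, 4.93 and 8.39 CPM in females and 16.1, 22.6 and 23.6 CPM in males (-1.99 ± 0.17). The highest female library of Dbp, at 42.7 CPM, was still far below the lowest male library, at 163.6 CPM.

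Several repressors were lower in females as well. Per3 lay at 6.35, 9.72 and 18.7 CPM in females and 38.6, 41.1 and 52.9 CPM in males (-2.03 ± 0.20) and Ciart, a repressor of the Arntl complex, at 0.677, 1.05 and 1.34 CPM in females and 3.46, 6.00 and 9.79 CPM in males (-2.51 ± 0.25), neither with overlap. Per2 (14.2, 17.2 and 37.2 CPM in females and 51.7, 55.1 and 76.0 CPM in males, -1.42 ± 0.25), Cry1 (-0.89 ± 0.15) and Cry2 (-0.83 ± 0.13) were lower without overlap, and Bhlhe41 (-0.88 ± 0.28) and Nr1d2 (-0.52 ± 0.19, adjusted p = 0.0518 without female controls 4 and 6 together) were also called. Per1 overlapped more (33.8, 42.5 and 57.3 CPM in females and 42.5, 72.8 and 103 CPM in males, -0.74 ± 0.22, edgeR adjusted p = 0.00889), and it was the clock gene called in controls that was not called in the knockout-labelled libraries (-0.10, adjusted p = 0.761). Nr1d1, which encodes the repressor REV-ERBα, lay at 411, 539 and 772 CPM in females and 494, 805 and 959 CPM in males and was not called (-0.47 ± 0.22, adjusted p = 0.088), although it was without male control 6 (0.0326) or female control 5 (0.0357) or 6 (0.0464). The repressors fall outside the naming rule, as a choice made once values were seen. The hour of collection, which sets the level of these genes in a mouse, is not given for either sex, so its part cannot be told apart from that of sex.

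The upstream sequences of the clock genes show where the known elements stand. RefSeq (build GRCm38.p6) gave the 250 bases before the start site for 16 of the 19 genes, 21 windows in all. The E-box CACGTG, bound by Arntl with its partners, was searched as written (it reads the same on both strands). It was found in 6 windows of 5 genes (Bhlhe41, Ciart, Cry1, Per1 and Tef), and in 6.02% of all 32851 windows. The D-box, bound by Dbp, Tef and Hlf, was searched as TTATGTAA or TTACGTAA on both strands and found in 1 window, that of Per3, and in 0.932% of all windows. The Ror element TAGGTCA, bound by Ror factors and by Nr1d1, was found on either strand in 1 window, that of Nfil3, and in 2.23% of all windows. The windows below show a gene with 3 E-boxes, one with 2 D-boxes, one with 1 E-box, and Npas2, with the widest clock difference and none of the 3 elements. Each runs 5′ to 3′ on the strand of its gene and capitals mark the element. They are Ciart (chr3:95882229-95882478, minus strand), Per3 (chr4:151044666-151044915, minus strand), Per1 (chr11:69098699-69098948, plus strand) and Npas2 (chr1:39194022-39194271, plus strand).
Ciart: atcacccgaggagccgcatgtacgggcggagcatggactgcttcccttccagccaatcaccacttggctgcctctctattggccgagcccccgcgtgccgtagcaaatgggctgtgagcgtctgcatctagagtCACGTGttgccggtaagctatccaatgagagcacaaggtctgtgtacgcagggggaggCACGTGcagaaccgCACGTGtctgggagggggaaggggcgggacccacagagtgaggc
Per3: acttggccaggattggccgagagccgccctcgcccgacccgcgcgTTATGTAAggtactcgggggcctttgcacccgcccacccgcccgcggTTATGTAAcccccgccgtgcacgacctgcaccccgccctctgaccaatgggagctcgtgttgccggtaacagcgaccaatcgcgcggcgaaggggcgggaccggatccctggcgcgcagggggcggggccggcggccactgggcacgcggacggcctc
Per1: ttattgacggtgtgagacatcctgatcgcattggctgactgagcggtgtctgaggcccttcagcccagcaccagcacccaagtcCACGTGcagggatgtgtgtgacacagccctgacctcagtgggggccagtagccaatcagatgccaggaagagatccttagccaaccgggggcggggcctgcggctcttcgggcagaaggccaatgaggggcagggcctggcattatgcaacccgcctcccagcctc
Npas2: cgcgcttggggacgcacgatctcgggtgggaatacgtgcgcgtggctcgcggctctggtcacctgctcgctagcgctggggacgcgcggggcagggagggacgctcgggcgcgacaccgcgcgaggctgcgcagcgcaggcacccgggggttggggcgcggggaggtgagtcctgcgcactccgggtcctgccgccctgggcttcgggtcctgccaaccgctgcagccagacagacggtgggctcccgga
These matches describe the sequence and were not tested for binding. The log2 differences of the 4 genes, given above, were -2.51 for Ciart, -2.03 for Per3, -0.74 for Per1 and 4.55 for Npas2.

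**Figure D3:**
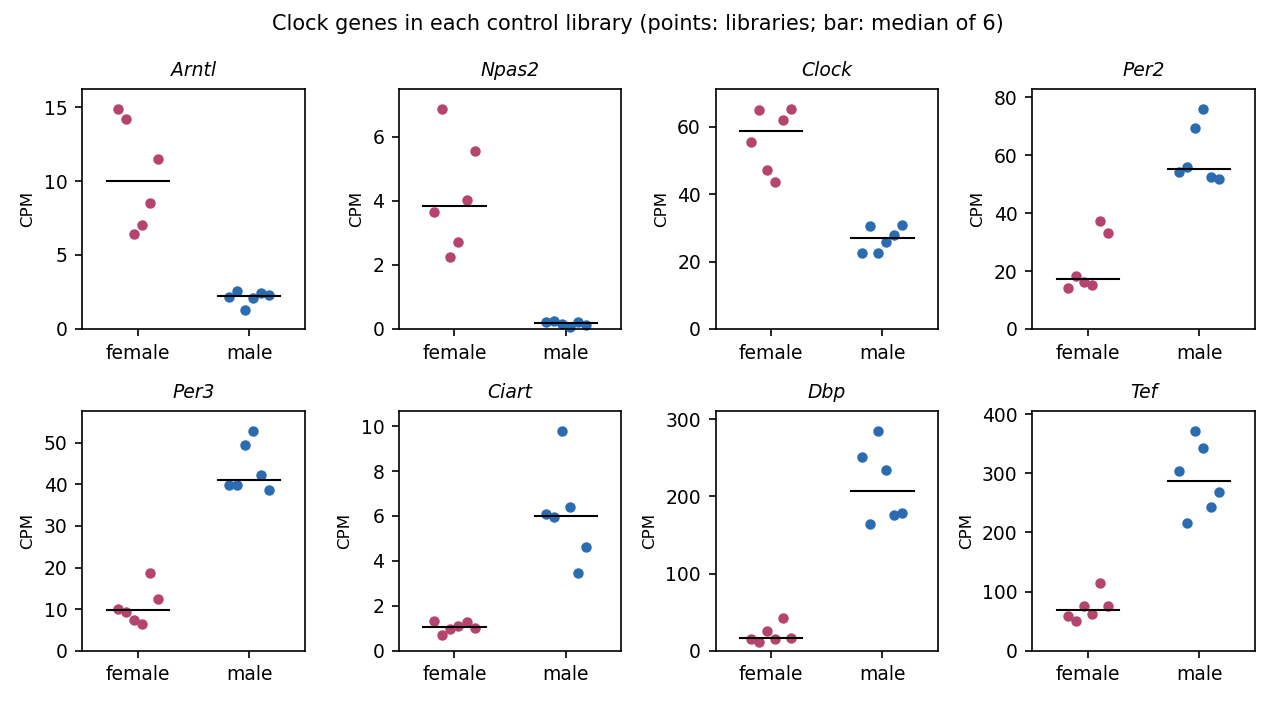
TMM-adjusted CPM of 8 clock genes in each control library, with the bar at the group's median. Arntl, Npas2 and Clock are higher in all 6 female libraries, and Per2, Per3, Ciart, Dbp and Tef are lower in all 6.

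Of 16 tested genes of glucocorticoid activation and response 8 were called lower in females, 2 were called higher and 6 did not pass the test. The shares of all autosomal genes were 20.0% lower and 23.8% higher, and the median of the list was -0.55. The knockout-labelled libraries gave 6 lower and 1 higher. Fkbp5, a chaperone that glucocorticoids induce, lay at 13, 16.4 and 27.6 CPM in females and 99.8, 133 and 167 CPM in males (-2.92 ± 0.18, edgeR adjusted p = 2.03e-11). Hsd11b1, the enzyme that regenerates active glucocorticoid inside fat cells, lay at 16.0, 19.5 and 31.1 CPM in females and 88.2, 105 and 116 CPM in males (-2.22 ± 0.22, adjusted p = 9.65e-08). H6pd, which supplies that enzyme with NADPH, lay at 452, 607 and 1014 CPM in females and 1281, 1485 and 1538 CPM in males (-1.05 ± 0.22) and was named after its values were seen. All female libraries were below all male libraries for the 3 genes. Serpina3n, a protease inhibitor, was lower too (511, 592 and 726 CPM in females and 997, 1130.1 and 1265 CPM in males, -0.93 ± 0.12). The receptor gene Nr3c1 did not pass the test (98.4, 143 and 179.8 CPM in females and 111, 133 and 158 CPM in males, 0.05 ± 0.15, adjusted p = 0.802). In the other direction, Pdk4, which restrains glucose oxidation and is also induced by fasting, was higher in females (89.5, 174 and 226 CPM in females and 26.0, 34.7 and 78.8 CPM in males, 1.98 ± 0.28), as was Dusp1 (0.75 ± 0.18).

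Of 27 genes that define the adipocyte 1 was called higher and 7 lower, with a median of -0.09. Calls in either direction were a smaller share than the 43.8% of all genes, while the 7 lower calls were a larger share than the 20.0% of all genes called lower. The master regulators Pparg (185, 229 and 313 CPM in females and 233, 260.5 and 321 CPM in males, -0.14 ± 0.16) and Cebpa (-0.09 ± 0.12) and the insulin-responsive glucose transporter gene Slc2a4 (-0.09 ± 0.16) were not called. Fabp4, the main fatty acid carrier of fat cells, was the higher gene, at 10191, 11698 and 19989 CPM in females and 6575, 7454 and 9133 CPM in males (0.78 ± 0.16, edgeR adjusted p = 0.000482). Fabp4 had every female library above every male library. Lower were the lipid droplet genes Plin1 (-0.54 ± 0.14) and Plin4 (-0.80 ± 0.19), Lipe, the hormone-sensitive lipase (1963, 2351 and 2578 CPM in females and 2905, 3521 and 4238 CPM in males, -0.63 ± 0.10), the glycerol channel Aqp7 (-0.48 ± 0.11), and the factors Ebf2 (-1.01 ± 0.18), Rxra (-0.58 ± 0.12) and Srebf1 (-0.82 ± 0.23). Ebf2, with medians of 14.4 CPM in females and 32.1 CPM in males, did not overlap. The other 19 did not pass the test.

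Of 23 tested adipokine genes 6 were called higher and 6 lower. These counts were near the higher share of all autosomal genes, 23.8%, and somewhat above the lower one, 20.0%. Leptin (Lep) lay at 801, 1321 and 1383 CPM in females and 731, 827 and 1120.3 CPM in males (0.46 ± 0.20, edgeR adjusted p = 0.0719) and adiponectin (Adipoq) at 4709, 6297 and 6779.7 CPM in females and 4338, 4804 and 5617 CPM in males (0.29 ± 0.13, adjusted p = 0.0704), and neither was called. Lep would be called without female control 5 (adjusted p = 0.0442) or 6 (0.0461), and Adipoq without female control 2 (0.0424). Adipsin (Cfd) was not called either (12268, 20079 and 27875 CPM in females and 17448, 19686 and 23959 CPM in males, 0.00 ± 0.20). Angptl8, an insulin-induced inhibitor of lipoprotein lipase, lay at 19.1, 29.5 and 50.3 CPM in females and 1.401, 3.61 and 7.63 CPM in males (3.10 ± 0.60, adjusted p = 0.000282) with no overlap, and was not called in the knockout-labelled libraries (0.83). Angptl4, a relative induced by fasting, was lower in females (899.6, 1082 and 1412 CPM in females and 1737, 2121 and 2348 CPM in males, -0.91 ± 0.13). Resistin (Retn, 0.46 ± 0.13), Rbp4 (0.60 ± 0.15), Fstl1 (1.49 ± 0.24), Ccn3 (2.68 ± 0.39) and Il6 (1.30 ± 0.31) were higher. In male control SVC Fstl1 ran from 836 to 1005 and Ccn3 from 46.2 to 68.4 CPM of the library total. These 2 genes were above every adipocyte control library there, and the part of stromal RNA was not tested. Cntfr, the receptor for ciliary neurotrophic factor, was lower (1.90, 2.43 and 2.95 CPM in females and 10.3, 17.0 and 23.7 CPM in males, -2.81 ± 0.23, adjusted p = 4.1e-09), and so were Agt (-1.05 ± 0.18), Nnat (-1.14 ± 0.38), Nampt (-0.66 ± 0.11) and Nrg4 (-0.85 ± 0.14). The other 11 tested, Lep, Adipoq and Cfd among them, were not called.

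Insulin signalling and glucose genes were called in both directions. Of all autosomal genes 23.8% were called higher and 20.0% lower, and with all libraries both counts of the glucose list were below these shares. Of 19 insulin signalling genes 4 were called higher and 6 lower (5 and 4 in the knockout-labelled libraries). Irs1, the first docking protein of the receptor in fat, was higher (45.3, 66.6 and 102 CPM in females and 24.5, 32.7 and 43.3 CPM in males, 1.05 ± 0.22), while Irs2 (-0.88 ± 0.26) and Akt2 (-0.59 ± 0.13) were lower. The adaptor Grb14, which holds the insulin receptor back, lay at 4.54, 6.07 and 9.15 CPM in females and 17.2, 26.3 and 36.9 CPM in males (-2.02 ± 0.18, edgeR adjusted p = 1.32e-08), and its relative Grb10 was higher (0.66 ± 0.15). Of 22 glucose uptake and glycolysis genes 1 was called higher, the fructose transporter Slc2a5 (3.42 ± 0.97, and 2.80 without female control 2), and 3 lower. The glucose transporter Slc2a3 was the lowest of these, at 3.21, 3.61 and 4.58 CPM in females and 18.4, 25.7 and 27.5 CPM in males (-2.67 ± 0.15, adjusted p = 4.94e-12), with no overlap. The knockout-labelled libraries gave 5 higher and 1 lower for the glucose list. The control count of 3 was 5 without male control 2, female control 5 or female control 6.

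Lipid synthesis genes were called in both directions, where 23.8% of all autosomal genes were higher and 20.0% lower. Both counts of the lipogenic list were below these shares. The lower calls in triglyceride synthesis and the higher calls in cholesterol synthesis were near them. Of 22 lipogenic genes 2 were called higher and 3 lower, against 6 higher and 1 lower in the knockout-labelled libraries. Elovl6, which elongates palmitate, was higher but spread widely among females (37.1, 106 and 353 CPM in females and 18.4, 32.7 and 44.0 CPM in males, 2.26 ± 0.58, edgeR adjusted p = 0.00339). Acacb, whose product malonyl-CoA restrains fatty acid entry into mitochondria, was lower (32.3, 101 and 146 CPM in females and 244, 309 and 415 CPM in males, -1.73 ± 0.36) with no overlap, and lay near 0 in the knockout-labelled libraries (0.07, adjusted p = 0.903). Scd1, the stearoyl-CoA desaturase, was lower (19106, 27503 and 37348 CPM in females and 33816, 44405 and 52169 CPM in males, -0.69 ± 0.21) and lost its call without female controls 4 and 6 together (adjusted p = 0.0551). In triglyceride synthesis 4 of 16 were called lower and 1 higher (2 without female control 2 or 6), and the lower genes were led by Mogat1 (23.8, 28.1 and 37.1 CPM in females and 88.3, 95.6 and 113 CPM in males, -1.75 ± 0.16), Lpin1 (-1.06 ± 0.17) and Gpat4 (-0.98 ± 0.10). Of 16 cholesterol synthesis genes 4 were called higher and none lower, and of 9 genes of cholesterol uptake and its regulation 1 was called higher and 2 lower. The synthesis genes were led by Hmgcs1 (185, 269 and 299.8 CPM in females and 77.9, 98.5 and 126 CPM in males, 1.33 ± 0.16).

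Lipid breakdown was mixed as well, and the lipolysis counts were near the shares of all autosomal genes, 23.8% higher and 20.0% lower. Of 33 lipolysis genes 9 were called higher and 6 lower. The higher count was 4 without male control 5 or 6, and 5 without male control 1 or 4 or female control 2 or 6. Pde4d, which degrades cAMP, was higher (1.44 ± 0.22), and the anti-lipolytic adenosine receptor Adora1 lower (42.8, 53.9 and 66.1 CPM in females and 74.4, 86.6 and 126 CPM in males, -0.76 ± 0.13). Adrb3, the β3-adrenergic receptor, was called (0.42 ± 0.15), but lost its call without any 1 of 8 libraries (male control 1, 3, 4, 5 or 6 or female control 3, 5 or 6, adjusted p of 0.0511 to 0.113). Of 24 fatty acid oxidation genes 3 were called higher and 7 lower, against 9 higher and 2 lower in the knockout-labelled libraries. Cpt1a, the gate for fatty acids into mitochondria, lay at 21.3, 28.2 and 32.3 CPM in females and 67.4, 78.0 and 82.5 CPM in males (-1.48 ± 0.14, edgeR adjusted p = 3.68e-08) without overlap. Of 23 branched-chain amino acid genes 6 were called each way, with Bcat2 lower (-0.85 ± 0.14) and Auh higher (0.52 ± 0.07).

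Of 42 tested respiratory chain genes encoded in the nucleus 17 were called higher and none lower (23 and none in the knockout-labelled libraries), with a median of 0.21. The shares of all autosomal genes in controls were 23.8% higher and 20.0% lower. Cox7c, a subunit of complex IV, lay at 161, 238 and 258 CPM in females and 79.6, 109.9 and 148 CPM in males (0.99 ± 0.17, edgeR adjusted p = 5.4e-05), Cox6c at 161, 248 and 305 CPM in females and 95.01, 123 and 158 CPM in males (0.88 ± 0.14) and Uqcrfs1, the Rieske protein of complex III, at 244, 247 and 278 CPM in females and 154, 169.6 and 195 CPM in males (0.58 ± 0.10), none with overlap. Without male control 6, or without female control 1, 1 gene of the list was called lower. Of 19 TCA cycle genes 6 were called higher and 3 lower, and 3 higher without female control 1. The share of mitochondrially encoded reads given above was higher in every female than in every male library, and its part in these counts was not tested. Of 41 cytosolic ribosomal protein genes 26 were called higher and none lower, with a median of 0.38. The higher count was 17 without female control 4, the lower count was 1 without any 1 of 6 libraries (male control 3, 4, 5 or 6 or female control 3 or 4), and 7 of 41 were called in the knockout-labelled libraries. Ribosomal genes have many near-identical copies, between which the authors' counting may split reads.

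Genes of brown and beige fat, which burn fuel for heat, were higher in part. Of 15 tested 8 were called higher and 1 lower, against 23.8% and 20.0% of all autosomal genes, with a median of 1.12. The lower gene was Ebf2 (-1.01 ± 0.18), described above with the adipocyte genes. The higher count was 5 without male control 1 or 6 or female control 2 or 6. Prdm16, a determinant of the beige program, lay at 3.37, 5.12 and 6.67 CPM in females and 1.17, 1.67 and 2.32 CPM in males (1.60 ± 0.20, edgeR adjusted p = 1.27e-06). Kng2, a kininogen gene, lay at 4.88, 6.79 and 12.6 CPM in females and 0.587, 0.647 and 1.08 CPM in males (3.46 ± 0.38, adjusted p = 3.08e-07). Both separated the groups in full. Ucp1, the uncoupling protein that produces the heat, was chosen after its values were seen and lay at 3.39, 8.65 and 75.1 CPM in females and 0, 0.0453 and 34.4 CPM in males. Only male control 2, at 34.4 CPM, was high among males, where the next was at 0.136 CPM. Ucp1 was not called (1.87 ± 1.06, adjusted p = 0.158). Without male control 2 the difference was 8.69 (adjusted p = 1.38e-05), without female control 6, the highest female library, it was 0.85 (adjusted p = 0.537), and with limma-voom on all libraries it was 6.20 (adjusted p = 0.00473). Cidea, another gene of brown fat, followed the same libraries (10.4, 16.2 and 38.5 CPM in females and 2.53, 5.05 and 24.7 CPM in males, 1.27 ± 0.44, adjusted p = 0.0233), with 24.7 CPM in male control 2, and differed by 1.97 without it. Its call was lost without any 1 of 6 libraries (male control 1, 4, 5 or 6 or female control 2 or 6, adjusted p of 0.0514 to 0.0812).

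Hormone and detoxification genes were called in both directions, where 23.8% of all autosomal genes were higher and 20.0% lower. The sex steroid and xenobiotic lists were near the higher share and somewhat above the lower one. Of 25 genes of sex steroid action 6 were called higher and 7 lower (7 and 3 in the knockout-labelled libraries). Esr1, which encodes estrogen receptor α, was not called (0.45 ± 0.25, edgeR adjusted p = 0.147). Cxcl12, a chemokine that estrogens induce in other tissues, was higher (133, 179 and 242 CPM in females and 43.9, 61.1 and 68.0 CPM in males, 1.61 ± 0.18), while Stc2 was lower (-1.23 ± 0.14). Beside Sult1e1, described above, these moved without overlap. Of 14 growth hormone and Stat5 genes 4 were called higher and 3 lower. The receptor Ghr (1356, 1687 and 1993 CPM in females and 973, 1035 and 1283 CPM in males, 0.67 ± 0.12), its feedback inhibitor Socs2 (1.23 ± 0.26) and Igfbp3 (1.72 ± 0.26) were higher, and Stat5b was lower (-0.40 ± 0.11). Of 41 xenobiotic and retinoid genes 8 were called higher and 11 lower, with 4 or 5 higher under 7 of the 12 fits that left out 1 library (without male control 1, 3, 4, 5 or 6 or female control 3 or 4). Por, the reductase that feeds all microsomal P450 enzymes, was lower (443, 522 and 817 CPM in females and 1062, 1423 and 1686 CPM in males, -1.23 ± 0.16), as was Cyp1b1 (1.46, 1.83 and 2.33 CPM in females and 4.91, 11.8 and 16.7 CPM in males, -2.60 ± 0.28). Sult1a1, a phenol sulfotransferase, was higher (1.35 ± 0.16).

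Genes of signals that shape fat precursors were called in both directions, against 23.8% higher and 20.0% lower over all autosomal genes. In the BMP and Wnt lists the higher calls were near that share. Of 18 BMP and TGF-β genes 4 were called higher and 7 lower. Bmper, a secreted BMP binding protein, lay at 3.80, 4.35 and 6.14 CPM in females and 19.6, 29.9 and 40.0 CPM in males (-2.65 ± 0.19, edgeR adjusted p = 3.91e-10). The ligand Bmp3 was higher (58.4, 86.7 and 104 CPM in females and 18.5, 22.9 and 24.6 CPM in males, 1.86 ± 0.23). Both were separated between the groups. Of 27 Wnt genes 6 were called higher and 3 lower, against 2 higher and 5 lower in the knockout-labelled libraries. The control calls included the decoy Sfrp4 (3.38 ± 0.46) and the inhibitor Nkd1 (1.32 ± 0.28). The Wnt target Axin2 was lower (-0.59 ± 0.24, adjusted p = 0.0463), a call lost without any 1 of 7 libraries (male control 1, 3, 4 or 6 or female control 1, 3 or 4, adjusted p of 0.0525 to 0.11). Of 19 FGF and IGF genes 8 were called higher and 3 lower. Fgf7, a stromal growth factor, lay at 0.640, 3.11 and 5.46 CPM in females and 0.0453, 0.133 and 0.235 CPM in males (4.39 ± 0.48), and Klb, the coreceptor for Fgf21, at 40.9, 90.5 and 111 CPM in females and 27.9, 33.6 and 40.6 CPM in males (1.35 ± 0.20), with female control 4 lowest at 40.9 CPM. Igf1r was lower (-0.76 ± 0.15).

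Stromal lists were called in part and not all in 1 direction, where 23.8% of all autosomal genes were higher and 20.0% lower. Of 21 fibroblast and preadipocyte markers 11 were called higher and 1 lower, with a median of 0.61. Pi16, a marker of early fibroblast progenitors, lay at 4.22, 9.14 and 12.6 CPM in females and 0.271, 0.442 and 0.684 CPM in males (4.14 ± 0.38, edgeR adjusted p = 1.88e-08), and Pdgfra, the receptor that marks fat precursors, at 3.82, 5.72 and 6.55 CPM in females and 1.23, 1.73 and 3.33 CPM in males (1.51 ± 0.21). Their groups did not overlap. The single lower gene, Fmo2 (-0.63 ± 0.25, adjusted p = 0.0433), lost its call without male control 1, 2 or 4 or female control 2, 4, 5 or 6. Of 22 collagen genes 7 were called higher and 4 lower, and of 46 matrix genes 20 and 8. Col6a1 (386, 520.2 and 689 CPM in females and 142, 190.2 and 213 CPM in males, 1.501 ± 0.20), Col3a1 (1.09 ± 0.17), Col14a1 (2.06 ± 0.27), Lum (2.33 ± 0.26) and Postn (1.57 ± 0.20) were higher, and Col6a5 (1.06, 1.57 and 2.89 CPM in females and 11.3, 14.4 and 36.0 CPM in males, -3.26 ± 0.35), Fn1 (-1.11 ± 0.25) and the macrophage protease Mmp12 (-3.58 ± 0.54) lower. Without female control 4 Mmp12 differed by -4.17. Of 11 mural markers 4 were called higher and 1 lower. The smooth muscle gene Tagln led them at 27.3, 64.3 and 133 CPM in females and 3.96, 6.05 and 11.7 CPM in males (3.46 ± 0.35). Endothelial markers gave 1 call higher and none lower of 20 (1 and 2 in the knockout-labelled libraries), with the higher count at 3 without male control 1 or female control 5 or 6, and none without female control 3.

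Of 21 tested macrophage and monocyte markers 13 were called lower and none higher, against 20.0% and 23.8% of all autosomal genes. The median of the list was -0.95. Csf1r, the receptor for the growth factor of macrophages, lay at 27.4, 29.4 and 43.3 CPM in females and 77.6, 87.8 and 155 CPM in males (-1.68 ± 0.24, edgeR adjusted p = 7.94e-06), and Mertk, the receptor for dying cells, at 10.7, 16.0 and 19.2 CPM in females and 33.8, 36.4 and 48.2 CPM in males (-1.33 ± 0.15). Gpnmb and Itgax, markers of lipid-associated macrophages, lay at 0.873, 1.42 and 3.76 CPM in females and 10.6, 11.6 and 35.6 CPM in males (-3.19 ± 0.42) and 0.145, 0.653 and 1.99 CPM in females and 4.93, 6.05 and 10.8 CPM in males (-2.98 ± 0.43). The groups of all 4 were apart, and male control 6 was highest for 3 of them. C1qa, chosen after its values were seen, overlapped and was not called (22.6, 44.5 and 71.5 CPM in females and 46.5, 55.9 and 81.9 CPM in males, -0.39 ± 0.29, adjusted p = 0.279). In the knockout-labelled libraries 19 of the 21 were called lower and 1 higher.

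Nerve, stress and immune lists followed no single direction, where 23.8% of all autosomal genes were higher and 20.0% lower. The higher complement calls and both counts of the hypoxia list were near these shares. Of 6 tested Schwann cell markers 4 were called higher, with S100b at 2.23, 5.02 and 6.68 CPM in females and 0.274, 0.554 and 1.16 CPM in males (2.89 ± 0.34), and 2 lower. The lower genes were Mbp (-0.36 ± 0.12) and Pmp22 (64.5, 108 and 179.9 CPM in females and 150.1, 204 and 284 CPM in males, -0.85 ± 0.28, edgeR adjusted p = 0.0893 without female controls 4 and 6 together), and the summed level of the list was 97.8 to 223 CPM in females and 194 to 313 CPM in males. Of 16 stress response genes 8 were called higher and 3 lower, and 5 higher without male control 4 or female control 3, 4 or 6. Chac1, a target of the integrated stress response, lay at 87.7, 183 and 459 CPM in females and 41.2, 50.9 and 68.8 CPM in males (2.16 ± 0.40). Of 20 cytokine genes 4 were called higher and 1 lower, with the eosinophil attractant Ccl11 at 12.6, 21.8 and 43.4 CPM in females and 2.48, 4.36 and 7.19 CPM in males (2.24 ± 0.32). Of 21 interferon genes 2 were called higher and 5 lower, with Ifi44 higher (2.34 ± 0.28) and Cxcl9 lower (-1.35 ± 0.29). The median of that list was 0.12, 13 of the 21 had a positive difference, and the knockout-labelled libraries gave 7 higher and none lower. Of 17 complement genes 4 and 5 were called (5 and 3 in the knockout-labelled libraries), of 14 hypoxia and angiogenic genes 3 and 3, and of 15 cell cycle genes 2 and 6. The higher complement genes were 2 without male control 3 or 4 or female control 4. The higher cell cycle genes were 4 without female control 5, none without female control 4, and 1 without any of 7 others (male control 1, 3, 4 or 6 or female control 1, 2 or 3). Egln3, an oxygen sensor, was the widest of the hypoxia list (11.9, 16.2 and 19.7 CPM in females and 1.49, 3.23 and 4.06 CPM in males, 2.40 ± 0.21).

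Lists of other tissues had few tested members, to be set against 23.8% higher and 20.0% lower over all autosomal genes. The mammary and skin epithelial list had 6, of which 3 were called higher and 1 lower, and 1 higher without male control 1, 5 or 6 or female control 2 or 4. Krt7, a keratin on the mesothelial list, was called higher (0.339, 1.33 and 20.8 CPM in females and 0.226, 0.749 and 1.96 CPM in males, 2.52 ± 0.74), with 20.8 CPM in female control 4 alone, and without that library it was not (1.03, edgeR adjusted p = 0.15). That list had 2 of 15 called higher, 1 without female control 4 and 4 without male control 1. The skeletal muscle gene Acta1 was higher (67.5, 102 and 268 CPM in females and 31.5, 41.0 and 65.4 CPM in males, 1.55 ± 0.32), and the summed muscle markers were 76.8 to 273 CPM in females and 31.9 to 70.6 CPM in males. Erythroid genes gave 2 calls higher of 4, none without female control 3, and 1 without male control 2, 3, 5 or 6 or female control 1 or 4. Lymphocyte genes gave 3 higher and 2 lower calls of 8. The higher count was 1 without male control 2, 3, 4, 5 or 6 or female control 1, 2, 3 or 4, and the lower count 1 without male control 2, 3, 4, 5 or 6 or female control 1, 5 or 6. MHC class II and dendritic genes gave 1 lower of 8, which was 2 without male control 1 or 4 or female control 3, 4 without female control 4 and none without male control 5. Fatty acid uptake genes gave 1 higher and 1 lower of 14, with 2 higher without male control 2 and 2 lower without female control 1. Mast cell and granulocyte genes gave 1 higher of 5, immediate-early genes 4 higher and 1 lower of 22 (1 and 4 in the knockout-labelled libraries), and heat shock genes 2 and 1 of 13. No epididymal gene passed the filter, the single tested testis and sperm gene, Odf2 (-0.48 ± 0.08), was lower, and Star of the ovary list (-1.15 ± 0.41), 1 of 2, lost its call without male control 2 or 5 or female control 5.

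**Figure D4:**
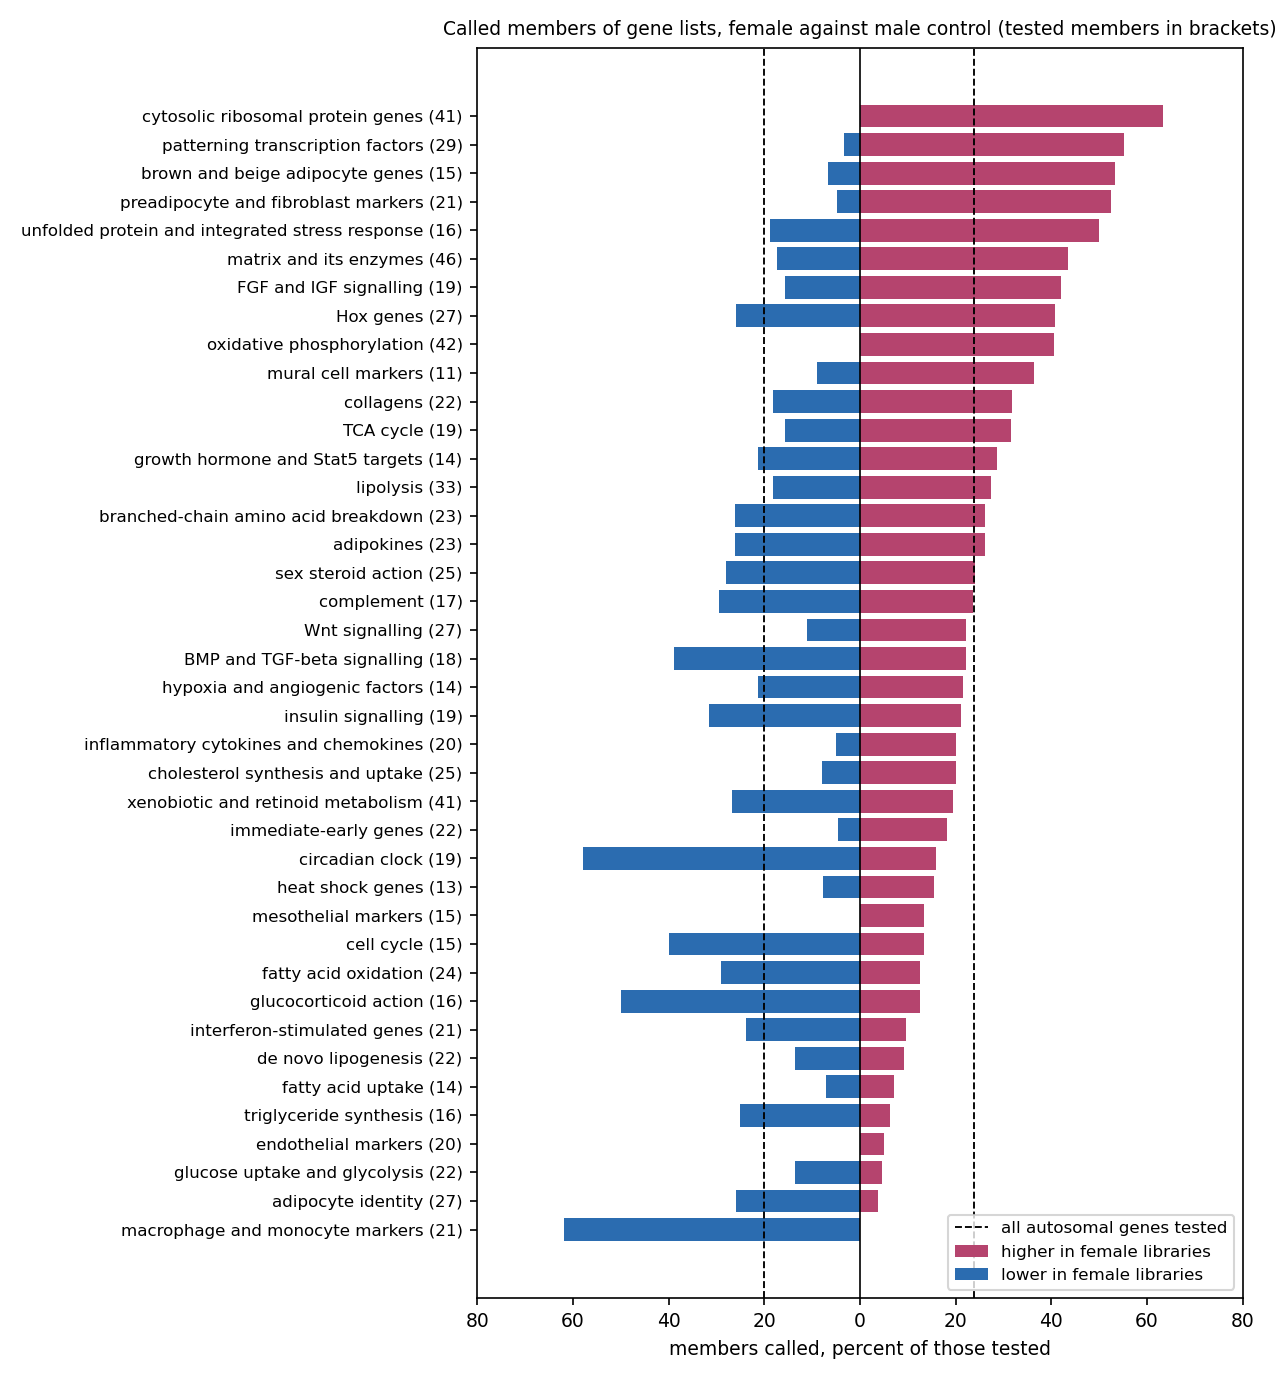
Share of tested autosomal members called higher (right) and lower (left) in female control adipocytes, for gene lists with at least 10 tested members. Dashed lines mark the shares over all autosomal genes, 23.8% higher and 20.0% lower, and the macrophage list reaches furthest to the lower side.

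The same difference was read in the 11 libraries labelled Ctnnb1KO, which shared no library with the controls. Of the autosomal genes called in controls, 3591 were also called in the same direction (60.5% of the control calls and 76.7% of the knockout-labelled calls) and 1 was called in the opposite direction. The sign was the same for 5738 control calls (96.6%). Of the 242 called genes that the naming rule took, 180 were called in both sets and 233 had the same sign. The fit shares 1 estimate of spread between the sets, and the same confounding of sex and depot holds in both.

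The difference between the 2 contrasts was itself tested and was called for 2 autosomal genes, with 1200 at an unadjusted p below 0.05 in edgeR. Serpina3k, a secreted protease inhibitor, lay at 0.625, 0.982 and 1.65 CPM in females and 6.37, 7.84 and 9.34 CPM in males in controls, a difference of -2.75 ± 0.22, and differed by -0.75 between the knockout-labelled groups (difference of differences -2.01, adjusted p = 0.0213). Akirin2, a nuclear factor in proteasome import and innate immunity, lay at 35.7, 37.5 and 38.9 CPM in females and 24.2, 28.6 and 31.0 CPM in males in controls (0.40 ± 0.07) and differed by -0.16 in the knockout-labelled groups (0.57, adjusted p = 0.0299). The control libraries did not overlap between the sexes for either gene, and the knockout-labelled libraries did.

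**Figure D5:**
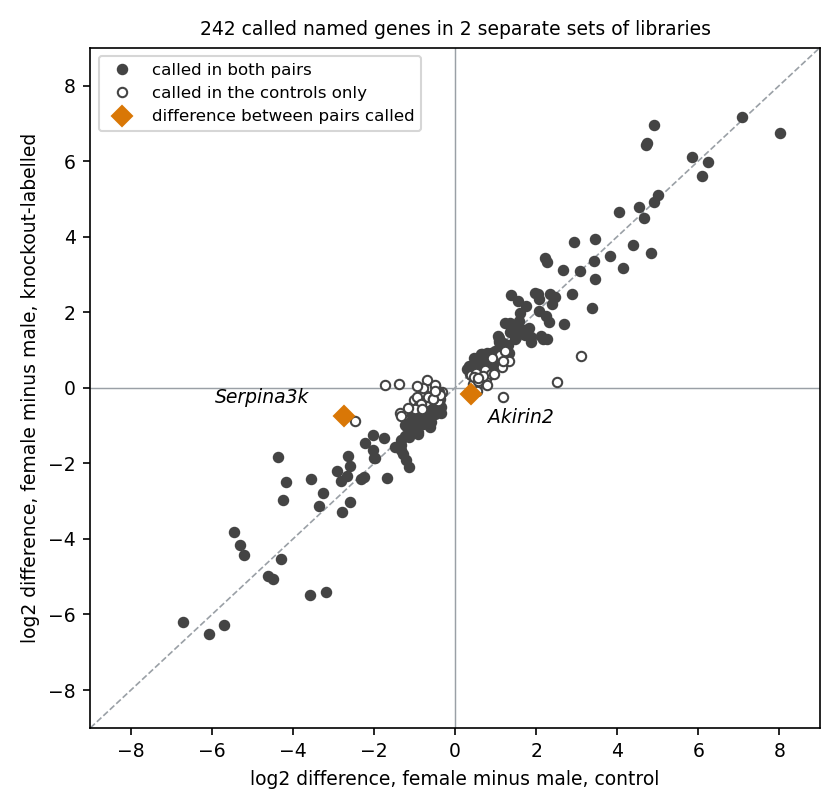
Log2 difference, female minus male, in control adipocytes (horizontal) and in knockout-labelled adipocytes (vertical) for the 242 called genes of the naming rule. Most points follow the diagonal, 233 of 242 with the same sign, and Serpina3k and Akirin2 are marked.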

How the data were processed

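RNA of buoyant adipocytes was sequenced as strand-specific mRNA libraries, per the labels' protocols. The authors deposited raw read counts per gene, which per the submitters' processing notes came with FastQC 0.12.1, STAR 2.7.11a, DESeq2 and the build mm39. Neither the counting program nor its strand setting or annotation is given in the sources used here. The authors' deposited log2 (regularised) values were not used here. The table held 0 sample columns outside the labels.

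Counts were tested with edgeR 4.0.16 in R 4.3.3 (TMM scaling, filterByExpr with a minimum count of 10, quasi-likelihood F-test, robust) on 23 adipocyte libraries in 4 groups. P-values were adjusted by Benjamini-Hochberg over the 14227 genes tested, and a gene was called below 0.05. CPM of single genes are TMM-adjusted, while those of Xist, Ddx3y and list sums are relative to the library total. CPM has no correction for gene length. Symbols and chromosomes came from reference tables by gene identifier, for 33501 of 35120 genes, and 1619 without a chromosome were not counted as autosomal. In simulated counts of 14062 genes, 100 were changed by 1 and 100 by 0.5 on the log2 scale, the rest left equal between groups. The test recovered 88% of the first and 42% of the second, with 8 false calls. Far more genes were called in the data, so these rates need not carry over to the 5939 calls.

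The members and the 52 gene lists were chosen with earlier results of these data known. Named genes were the 12 of largest called difference each way (a mean of at least 1 CPM in 1 group, every library of 1 group beyond the mean of the other, no predicted gene or pseudogene) and up to 3 called members of each list each way by smallest p, or with none called the member of smallest p. Hox genes, both depot lists, adipocyte identity genes and adipokines were accounted for one by one. Xist, Ddx3y, Ctnnb1, Akirin2, Serpina3k, Adrb3, C1qa, Cidea, Esr1, H6pd, Itgax, Nr3c1, Ucp1, the clock repressors and the patterning genes Foxc2, Foxf1, Irx1, Tbx3 and Tbx5 fall outside this rule, as choices made once values were seen. Some genes that the rule takes are not reported here. The alternatives tried were DESeq2's and upper-quartile scaling, 2 other filters, DESeq2 1.42.0 and limma-voom (limma 3.58.1) as tests, the 2 groups alone, a replicate block and leaving out each library. Leaving out female controls 4 and 6 together was added after seeing the data. Libraries of a group differed by more than counting noise (lowest chi-square per degree of freedom 13.1).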

Additional observations from a re-analysis of the deposited data

Results flagged for a closer look

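For 184 genes, each examined in both control groups, 30 of the 368 sets of 6 values had a library flagged by Dixon's criterion at the 95% level. Chance alone gives this in about 1 in 20 sets of normally distributed values, which values near 0 need not be. Values are TMM-adjusted CPM, with the nearest other library of the group in brackets. Of these flags, 6 fell on male control 2, each time as the highest male library in a gene whose fitted difference was towards females. They were Ucp1 at 34.4 (0.136), Cidea at 24.7 (8.62), Kng2 at 1.076 (0.730), Hoxa10 at 1.16 (0.365), Hoxa13 at 0.387 (0.0471) and Irx1 at 0.0430 (0). Male control 6 was highest for the macrophage genes Gpnmb at 35.6 (15.6), Itgax at 10.8 (6.73) and Mertk at 48.2 (38.6), for Lep at 1120 (842) and for Hoxc8 at 105 (93.9), and lowest for Frmd3 at 0 (0.0907). Male control 1 was highest for the stromal genes Pdgfra at 3.33 (1.86), Sfrp2 at 2.19 (0.727) and Col6a5 at 36.0 (16.6), for Saa2 at 10.3 (5.56) and for Cxcl9 at 356 (189).

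The other male libraries were control 3 for Adora1 at 126 (90.7), control 4 for Bmp3, lowest at 18.5 (22.5), and control 5 for Ahsg at 0.182 (0.0471) and Ghr at 1283 (1068). Among females, control 4 was highest for Krt7 at 20.8 (4.83), Fkbp5 at 27.6 (17.9) and Ccl11 at 43.4 (23.6) and lowest for Klb at 40.9 (85.9). Female control 6 was highest for Ucp1 at 75.1 (27.8) and lowest for Rbp4 at 707 (954). Female control 3 was highest for Acta1 at 268 (136) and Aqp7 at 168 (131), and female control 5 for Slc44a4 at 0.0970 (0).

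The difference between the sexes itself differed between control and knockout-labelled libraries for Akirin2, by 0.57, and for Serpina3k, by -2.01 on the log2 scale, by the edgeR test of the difference described above.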

How the results depend on the processing

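The count of 5939 called autosomal genes was 5892 with DESeq2's size factors in edgeR, 5993 with upper-quartile scaling, 5453 without the filter, 5578 with a filter of 1 CPM, 6191 with DESeq2, 5926 with limma-voom, 5965 with the 2 groups alone and 5092 without female controls 4 and 6. Leaving out 1 library gave 5282 to 6028. With the replicate block it was 6044, but same-numbered female and male libraries did not deviate together (correlations of -0.267 to 0.0509, none best with its own number), so the numbers were not taken as pairs. In the knockout-labelled libraries the count of 4680 was 3725 with the 2 groups alone, 4964 with the replicate block and 3770 to 5144 with 1 library left out. The share of control calls that were higher ran from 48.7% to 56.7%, and the median log2 difference of all autosomal genes from 0 to 0.0729. Of 242 called genes of the naming rule 209 kept their call under all 21 alternatives, 33 lost it under at least 1, and none changed sign. Of 41 that were not called, 10 gained a call under at least 1. Of the 104 counts of called genes per list and direction, 39 moved by more than 1.5 times under at least 1 alternative. Differences of genes with almost no reads in 1 group moved with the method, Pitx1 being 6.02 and Irx1 3.75 with limma-voom against 8.01 and 5.02. Under about 0.136 CPM, or 3 reads in a library, levels rest on single reads.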

Other observations

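Among the 78 genes more than 3 log2 units higher in females that had any read in males, the highest male library was control 2 for 22 genes, control 3 for 17, control 5 for 16, control 1 for 11, control 4 for 8 and control 6 for 4. Among the 42 genes of the opposite kind, the highest female library was control 4 for 12, control 5 for 11, control 6 for 8, control 2 for 5 and controls 1 and 3 for 3 each. Each of the 12 libraries was the highest of its group for some of these genes.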
